A study of Drosophila melanogaster with 12 samples.

Results

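Head expression was described for 9 genes of the fruit fly Drosophila melanogaster: the chitin deacetylase genes serp (FBgn0260653) and Cda4 (FBgn0052499), the adult cuticle protein gene Acp1 (FBgn0014454), the Vajk gene Vajk3 (FBgn0028544), and CG7214 (FBgn0031940), CG7203 (FBgn0031942), CG8736 (FBgn0033308), CG11458 (FBgn0040637) and CG3713 (FBgn0040343), which carry only annotation numbers. They are 9 of the 11236 genes in the deposited table. They were chosen from these same libraries, as cuticle-linked or uncharacterised genes outside the Cpr cuticle protein family whose male-to-female difference was not the same in the 2 mating systems. That difference between the sex differences is therefore how the genes were picked, and it is given here as a description without a test. All 9 passed the filter of a mean value of 10 or more over the 12 libraries, as did 10568 genes in all.

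The insect cuticle is laid down by epidermal cells as layers of chitin, a polymer of acetylated glucosamine, filled with structural proteins. Chitin deacetylases remove acetyl groups from that polymer; serp (serpentine) and its neighbour verm (vermiform) encode secreted chitin-binding deacetylases known for setting the length of tracheal tubes and ordering the chitin of the embryonic cuticle. Acp1 encodes a protein of the adult cuticle, and the Vajk genes encode cuticle proteins, most of them in the gene cluster that also holds the Nimrod phagocytosis receptors. In an adult fly the cuticle goes on being thickened for some days after emergence.

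The flies came from 6 laboratory populations that had evolved for 117 generations under an imposed mating system, 3 under monogamy and 3 under polygamy, followed by a single generation in shared conditions. Virgins were kept with their own sex, and RNA was taken from dissected heads at an age of 4 days. Each population gave 1 male and 1 female library, so the 4 groups were monogamous males, polygamous males, monogamous females and polygamous females, with 3 libraries each. The number of flies behind a library is not given in the sources used here, so the spread between libraries is that between populations together with any technical spread.

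The libraries held 34558521 to 52282995 reads, of which each of the 9 genes took 35 to 21723 in a library, so none was near the limit of detection. The female library of monogamous population 1 stood apart on the first principal component (42.9% of the variance), with a score of -82.6 against -16.3 to 24.6 for the other 11. All 10 photoreceptor and neuron markers were in the table, as the label of heads requires. A lower value in a head library can come from fewer cells of a type or from less RNA per cell, which cannot be told apart here. Values below are the deposited normalised read counts, in which each library was scaled to nearly the same total.

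Per kilobase of merged exon, the highest of the 9 levels was that of CG7203, with a mean of 14111 ± 6723 (SD, n = 12) normalised reads per kb. CG7214 followed at 6441 ± 4149, CG11458 at 4237 ± 3199, Acp1 at 1402 ± 972 and CG8736 at 838 ± 645 normalised reads per kb. The lowest 4 were serp at 279 ± 121, CG3713 at 275 ± 83.0, Vajk3 at 132 ± 90.7 and Cda4 at 128 ± 36.9 normalised reads per kb. The order of serp and CG3713 was not settled, since serp was above in 5 of 12 libraries, nor was that of Vajk3 and Cda4, where Vajk3 was above in 5 of 12. CG7214 was above CG11458 in 10 of 12 libraries, and every other step of the order held in all 12. Together the 9 genes made up 0.0548% of all normalised reads in monogamous males, 0.0199% in polygamous males, 0.0411% in monogamous females and 0.0805% in polygamous females.

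All 9 genes had the same arrangement of males. The lowest monogamous male library was above the highest polygamous male library for 9 of 9, an arrangement found in 13.7% of the genes tested. In females the arrangement was turned round: for 7 of 9 genes the monogamous female libraries all lay below the polygamous ones, found in 14.7% of genes tested, while CG11458 and CG3713 overlapped through the library that stood apart and did not overlap without it. Both arrangements at once held for 7 of the 9 genes and for 58 genes in all (0.549%). Because the genes were chosen for this contrast, these shares only say how the choice looks in the libraries. The plot of values by library shows the high polygamous females and low polygamous males side by side.

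**Figure D1:**
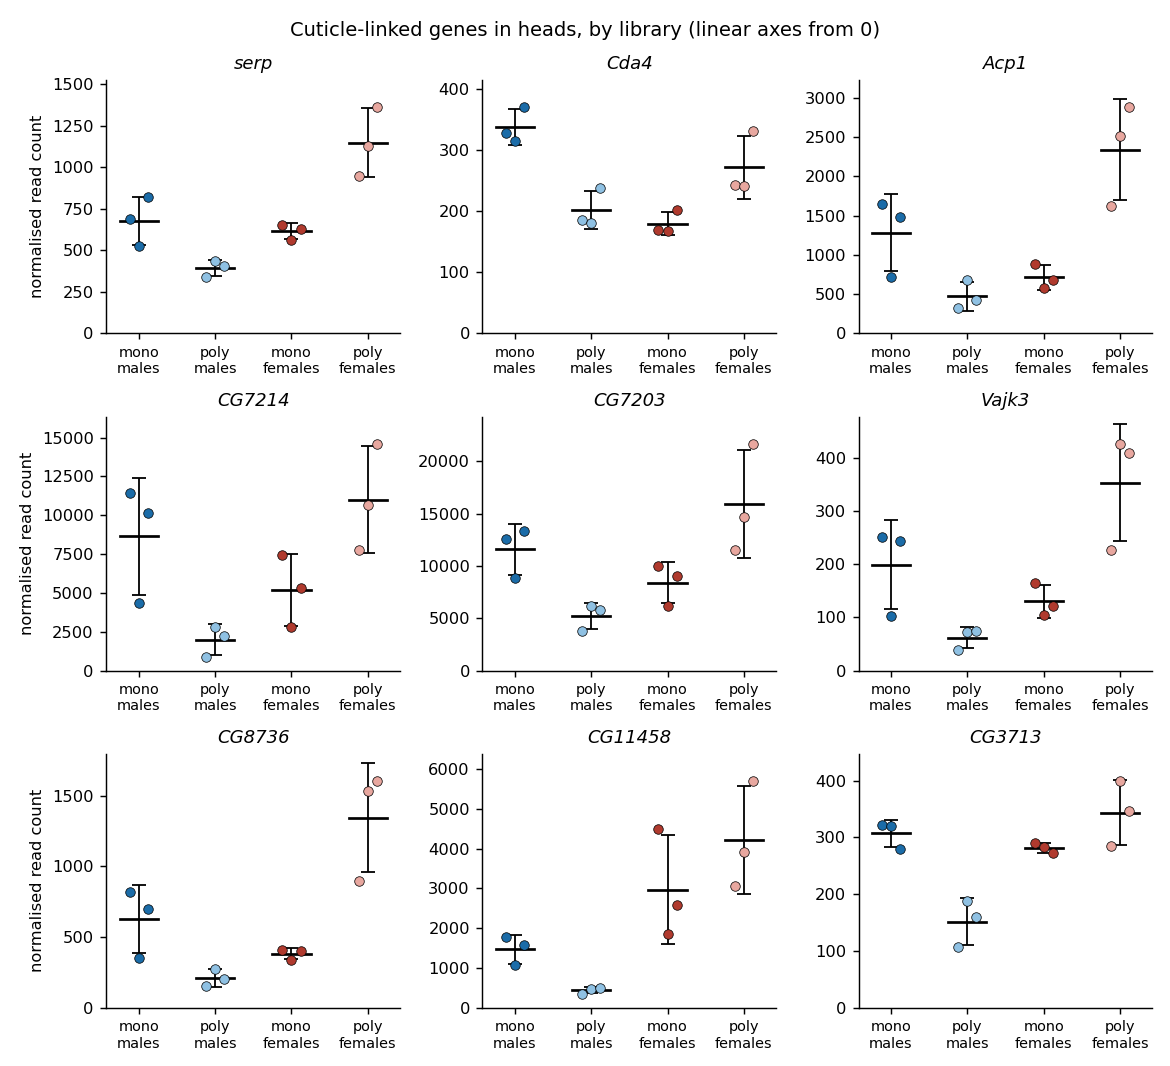
Normalised read count (linear axes from 0) of the 9 genes in each of the 12 libraries, by group, with the mean as a bar and the SD as whiskers (n = 3 per group). Polygamous males are the lowest group except for Cda4, where the mean was 202 in polygamous males and 179.6 in monogamous females, and polygamous females are the highest group except for Cda4, where monogamous males averaged 338.

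Among the deacetylases, serp had 686, 528 and 818 normalised reads in the 3 monogamous male libraries, 342, 439 and 405 in polygamous males, 655, 565 and 630.5 in monogamous females and 948, 1127 and 1363 in polygamous females. The 2 monogamous groups overlapped, polygamous males lay below every other library, and polygamous females above every other library. The male minus female difference on the log2(value + 1) scale was 0.11 (SE 0.17) under monogamy and -1.53 (SE 0.17) under polygamy, where females had 2.88 times the male level. The sex difference under monogamy minus that under polygamy was 1.64 (SE 0.25).

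Cda4, a gene of the same enzyme class on the X chromosome, differed from serp in its monogamous flies. It had 328, 316 and 371 normalised reads in monogamous males, 186, 182 and 238 in polygamous males, 169, 168 and 202 in monogamous females and 243, 242 and 331 in polygamous females. Monogamous males were above monogamous females without overlap, the only one of the 9 genes with that order, which 31.8% of all genes tested showed. The log2 sex difference was 0.91 (SE 0.15) under monogamy and -0.42 (SE 0.15) under polygamy, and the difference between them was 1.34 (SE 0.22). Within populations the sex difference was almost the same each time, at 0.95, 0.90 and 0.88 in the monogamous populations and -0.39, -0.41 and -0.48 in the polygamous ones.

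The other 4 chitin deacetylase genes were measured beside them. verm, which lies next to serp on chromosome arm 3L with no annotated gene between them, had 1789, 1677 and 2302 normalised reads in monogamous males, 1286, 1393 and 1426 in polygamous males, 1634, 1496 and 1720.2 in monogamous females and 1942, 2069.8 and 2379 in polygamous females. Its groups stood as those of serp did in the 4 comparisons of a sex or mating system, with smaller steps: the difference of the sex differences was 0.87 (SE 0.17). Cda9 (-0.47, SE 0.25) and ChLD3 (-0.77, SE 0.40) had negative values on the same measure, and the exons of ChLD3 overlap those of LSm7. Cda5 had 0.97 (SE 0.67), with 1253 normalised reads in the female library of monogamous population 1 and 5296 to 7415 in the other 11 libraries. The deacetylase genes thus did not all share the arrangement seen in serp, Cda4 and verm.

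Acp1 had 1648, 724 and 1478 normalised reads in monogamous males, 321, 675 and 421 in polygamous males, 889, 578 and 682 in monogamous females and 1626, 2512 and 2885 in polygamous females. Only monogamous males and monogamous females overlapped among the 4 comparisons of a sex or mating system. The log2 sex difference was 0.78 (SE 0.36) under monogamy and -2.34 (SE 0.36) under polygamy, where females had 5.05 times the male level. The monogamous minus polygamous difference was 1.42 (SE 0.36) in males and -1.69 (SE 0.36) in females.

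CG7214 and CG7203 lie beside Acp1 on chromosome arm 2L. CG7214 is the next annotated gene, and 1 annotated gene, ATPsynGL, not analysed here, separates it from CG7203. CG7214 had 11412, 4365 and 10165 normalised reads in monogamous males, 891, 2839 and 2227 in polygamous males, 7417, 2778 and 5346 in monogamous females and 7751, 10684 and 14584 in polygamous females. CG7203, the most abundant of the 9, had 12579, 8846 and 13399 normalised reads in monogamous males, 3810.1, 6148 and 5768 in polygamous males, 9994, 6203 and 9032 in monogamous females and 11506, 14657 and 21668 in polygamous females. Both genes repeated the order of Acp1, with polygamous males lowest and polygamous females highest on average. The log2 sex difference of CG7214 was 0.73 (SE 0.52) under monogamy and -2.58 (SE 0.52) under polygamy. That of CG7203 was 0.47 (SE 0.28) under monogamy and -1.59 (SE 0.28) under polygamy. The difference of the sex differences was 3.31 (SE 0.74) for CG7214, the largest of the 9, and 2.06 (SE 0.40) for CG7203. The 2 annotated genes on the other side of Acp1, CG31904 and CG13796, had -0.07 (SE 0.28) and -0.12 (SE 0.18). Exons of CG7203 overlap the noncoding RNA gene CR45718, and since the strand used in counting is not stated, reads of the 2 cannot be told apart.

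Vajk3, also on 2L and inside the longer gene Ance-3 without exon overlap, had 251, 102 and 244 normalised reads in monogamous males, 39.2, 72.2 and 74.9 in polygamous males, 165, 104 and 122 in monogamous females and 226, 425 and 408 in polygamous females. Monogamous males held 1 low library, that of population 2, which lay just below its female counterpart. The log2 sex difference was 0.52 (SE 0.40) under monogamy and -2.49 (SE 0.40) under polygamy, and the difference between them was 3.01 (SE 0.56). The other 3 Vajk genes had smaller values of the same sign, 0.68 (SE 0.21) for Vajk2, 0.58 (SE 0.37) for Vajk1 and 0.22 (SE 0.24) for Vajk4. Vajk2 is the adjacent gene on one side, and NimA, a gene of the Nimrod family on the other side, had 1.67 (SE 0.56).

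CG8736, on chromosome arm 2R, had 818, 355 and 700.3 normalised reads in monogamous males, 151, 277 and 203 in polygamous males, 406, 338 and 404 in monogamous females and 898, 1533 and 1602 in polygamous females. Polygamous females were above every other library of this gene. The log2 sex difference was 0.62 (SE 0.33) under monogamy and -2.67 (SE 0.33) under polygamy, where females had 6.35 times the male level, and the difference between them was 3.29 (SE 0.47).

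CG11458, on chromosome arm 3L, was the gene with a female excess in both mating systems. It had 1767, 1065 and 1567 normalised reads in monogamous males, 358, 477 and 496 in polygamous males, 4492, 1851 and 2573 in monogamous females and 3053, 3907 and 5697 in polygamous females. Males were below females without overlap under monogamy, as in 13.2% of genes tested, and again under polygamy, where all 9 genes had that order against 9.92% of genes tested. The log2 sex difference was -0.95 (SE 0.33) under monogamy and -3.21 (SE 0.33) under polygamy, a female excess of 1.94 times and 9.28 times. Monogamous and polygamous females overlapped through the female library of monogamous population 1, at 4492 normalised reads. The log2 difference of monogamous minus polygamous was 1.71 (SE 0.33) in males and -0.56 (SE 0.33) in females; with that library left out the female difference was -0.90 (SE 0.28) and the sex difference under monogamy -0.61 (SE 0.28).

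CG3713, which lies within the longer gene CG43867 on the X chromosome without exon overlap, was the other gene whose female groups overlapped. It had 321, 320.3 and 280.1 normalised reads in monogamous males, 108, 188 and 159 in polygamous males, 290, 283 and 272 in monogamous females and 286, 399 and 346 in polygamous females. Polygamous males were below all other libraries, and the other 3 groups overlapped. The log2 difference of monogamous minus polygamous was 1.05 (SE 0.19) in males and -0.27 (SE 0.19) in females, which was -0.29 (SE 0.21) with that library left out. The difference of its sex differences, 1.32 (SE 0.26), was the smallest of the 9.

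Population by population, every polygamous population had a lower male than female value for all 9 genes, with log2 differences of -0.39 to -3.52. For the other 8 genes each monogamous population had male and female values nearer to each other than any polygamous population did, while for Cda4 they lay further apart. There the male value was the higher one in all 3 populations for Cda4, Acp1, CG7214, CG7203, CG8736 and CG3713, and the lower one in all 3 for CG11458. For serp and Vajk3 the sign varied, since monogamous population 2 had -0.10 and -0.03 for these genes and populations 1 and 3 had 0.07 to 1.00. Over all genes tested the mean sex difference was positive for 65.2% under monogamy (median 0.13) and 69.8% under polygamy (median 0.12). The monogamous values of CG3713, at 0.04 to 0.18, and that of CG8736 in population 2, at 0.07, lay near that background. The share of all genes with 1 sign in all 3 populations is not given here.

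**Figure D2:**
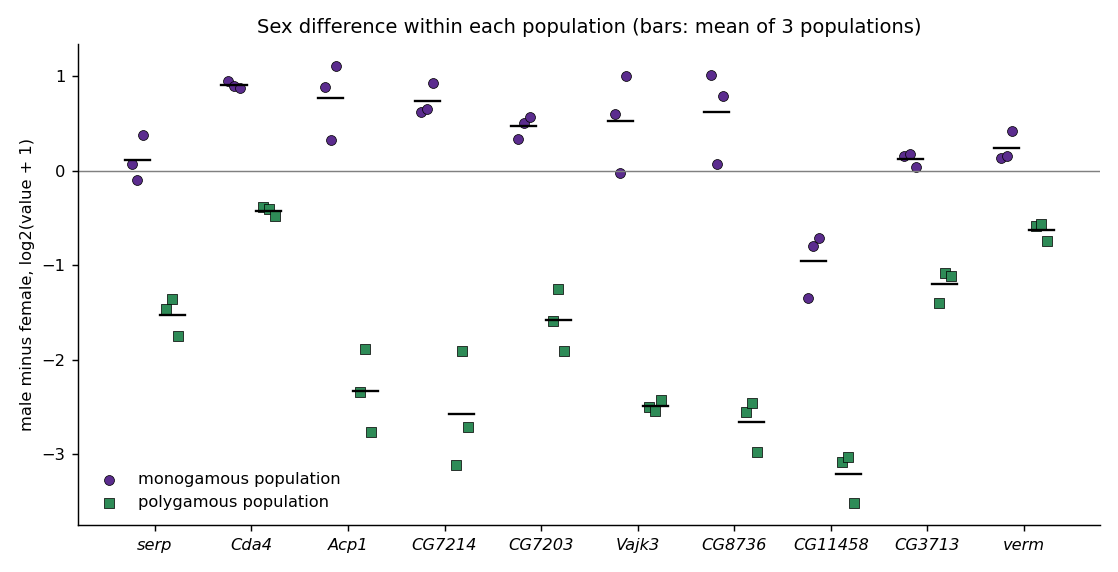
Male minus female difference of log2(value + 1) within each of the 6 populations for the 9 genes and verm (circles, monogamous; squares, polygamous; bars, mean of 3 populations). All polygamous points lie below 0, from -0.39 (Cda4, population 1) to -3.52 (CG11458, population 3), and the highest monogamous point is 1.11 (Acp1, population 3).

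How far the choice of these genes rests on the statistical method was also counted. Across all 10568 genes the limma fit with 1 mean per group called 0 differences of the sex differences (0.0%), while 576 genes (5.45%) had an unadjusted p under 0.05, and edgeR's quasi-likelihood test on recovered reads also called 0 (0.0%). With the population as a replicate block, limma called 9 genes (0.0852%), which were 8 of the 9 genes described here, all but serp, and the cuticle protein gene Cpr97Eb. DESeq2 called 63 of 10335 genes (0.61%), all 9 among them together with verm and the chitin synthase gene kkv. Because the 9 genes were picked for this contrast in these same libraries, their calls here are no evidence for it. The 63 were not all cuticle genes. They also held the glial markers nrv2 and Gat, the hemocyte marker NimC1 and the photoreceptor marker ninaC. The fat body markers Yp1, Yp2, Yp3 and to were called with a negative difference. limma called 9 genes (0.0852%) without the library that stood apart and 1 (0.00946%) without monogamous population 1, with 0 of the 9 among them in either case. By size of the positive difference the 9 genes ranked between 6th (CG7214) and 154th (CG3713) among genes with a positive difference. Over the 16 settings of processing tried each of the 9 values stayed positive, with a range of 1.23 to 1.35 for Cda4, 1.51 to 1.75 for serp, 2.89 to 3.34 for Acp1 and 3.04 to 3.65 for CG7214.

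The difference between males and females averaged over all 6 populations was not used in choosing the genes, so it was tested, with limma over all 12 libraries. This test took the male and female library of a population as separate samples. Of the 9 genes, 6 were lower in male heads and 0 higher; of all genes 29.5% were called, 20.2% higher and 9.27% lower in males. The median log2 difference of the 9 was -0.78, against 0.13 over all genes tested. Over all genes 2139 were called higher and 980 lower in males, and this split depended on scaling: it was 848 and 1533 after TMM rescaling (22.5% called), 506 and 1292 after upper-quartile rescaling (17.0%), 828 and 1567 in edgeR (22.7%), and 1121 and 1611 in DESeq2 (25.9%), which moved the median of all genes by -0.10 to -0.15. Of the 9 genes, 7 were called lower under each of the first 3 and 8 in DESeq2, with 0 higher in any. CG11458 had the largest difference, at -2.08 (SE 0.23, adjusted p = 0.00021), and males were below females in 6 of 6 populations. The deacetylase gene serp fell by 0.71 in males (SE 0.12, adjusted p = 0.0023), CG8736 by 1.02 (SE 0.24, adjusted p = 0.0093) and CG3713 by 0.54 (SE 0.13, adjusted p = 0.013), each on the log2 scale. Vajk3 (-0.98, SE 0.28, adjusted p = 0.024) and Acp1 (-0.78, SE 0.26, adjusted p = 0.043) were the other 2 calls. Except for CG11458, these averages join a large polygamous difference to a small or opposite monogamous one, as given above, and they share their estimate of spread with the contrast that chose the genes.

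Cda4 (0.24, SE 0.11, adjusted p = 0.11), CG7214 (-0.92, SE 0.37, adjusted p = 0.082) and CG7203 (-0.56, SE 0.20, adjusted p = 0.057) did not pass. With the population as a block they did, with adjusted p of 0.017, 0.0084 and 0.0084 from limma, so that 8 genes were then called lower and Cda4 higher in males (29.7% of all genes called). The calls of serp and CG11458 held in all 16 settings tried, and the same 6 genes were called lower once the library that stood apart was left out (51.7% of all genes called). Without polygamous population 3 (18.2% of all genes called) only 3 calls remained, those of serp, CG11458 and CG3713, and the limma adjusted p was 0.053 for CG8736, 0.073 for Vajk3 and 0.16 for Acp1. The call of Acp1 was lost on leaving out any population but monogamous 1 (limma adjusted p of 0.062 to 0.16), that of Vajk3 also without polygamous population 2 (0.084), and that of CG3713 without monogamous population 3 (0.051).

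The mating system itself, compared on 6 population means, gave no call among the 9 genes. limma called 0 of 10568 genes (0.0%), with 1496 genes (14.2%) at an unadjusted p under 0.05; edgeR also called 0 (0.0%), and DESeq2 called 386 of 10353 (3.73%) and none of the 9. At an unadjusted p under 0.05, limma had 0 of the 9. The log2 differences, monogamous minus polygamous, were 0.58 (SE 0.28, limma adjusted p = 0.38) for CG11458, 0.51 (SE 0.44, adjusted p = 0.55) for CG7214 and 0.39 (SE 0.17, adjusted p = 0.36) for CG3713. For the other 6 genes they lay between -0.13 (Acp1, SE 0.30) and 0.13 (CG7203, SE 0.24), with serp at -0.06 (SE 0.14), CG8736 at -0.12 (SE 0.27), Cda4 at 0.08 (SE 0.14) and Vajk3 at 0.10 (SE 0.34). The signs of serp, Acp1, CG7203, Vajk3, CG8736 and CG11458 turned under at least 1 alternative setting. The within-sex differences of 0.75 to 2.16 in males and -0.27 to -1.77 in females were thus of opposite sign for every gene and cancelled in part in the mean of the sexes. Among the other family genes, Vajk1 had -0.67 (SE 0.21, limma adjusted p = 0.31) and ChLD3 -0.76 (SE 0.22, adjusted p = 0.31). In an alternative added after the data were seen, 1 mean per group was fitted to 11 libraries, without the female one of monogamous population 1. There Vajk1 had -0.49 (limma adjusted p = 0.016) and Cda5 had -0.04; with that library the population means gave -0.40 (SE 0.30) for Cda5. That alternative treats the sexes of a population as separate samples and called 1477 genes (14.0%) and none of the 9.

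**Figure D3:**
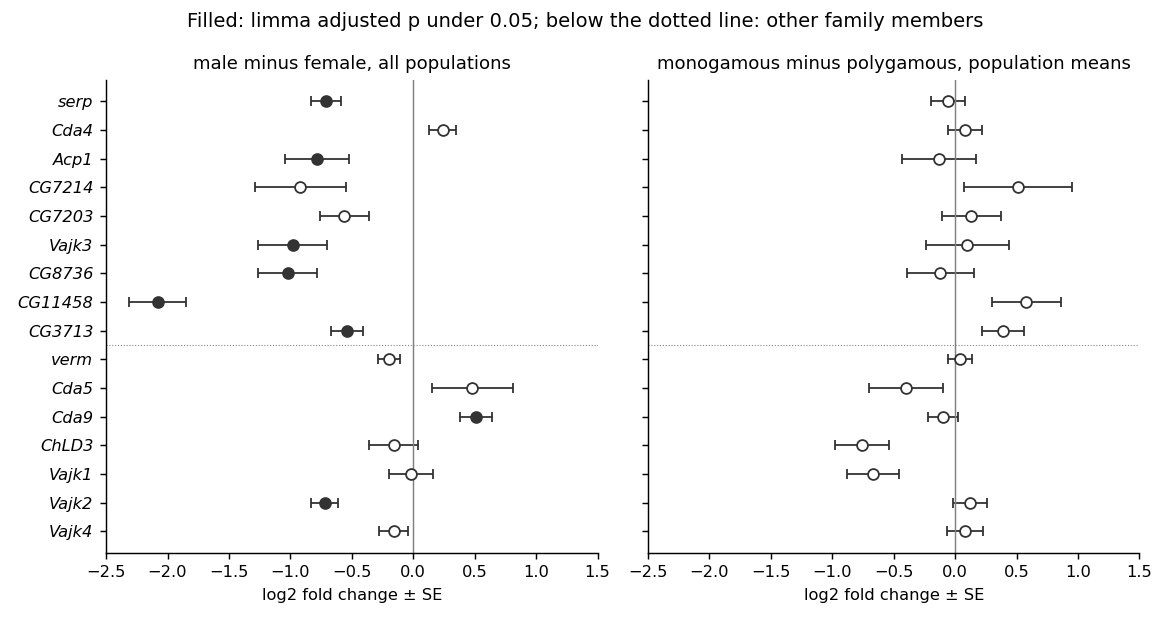
Log2 fold change with its SE for the 9 genes and, under the dotted line, the other chitin deacetylase and Vajk genes: male minus female over all populations (left) and monogamous minus polygamous on population means (right); filled points had a limma adjusted p under 0.05. CG11458 lies farthest from 0 on the left at -2.08, and no point on the right is filled.

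Within the groups the 9 genes also varied together from library to library. Over the 12 libraries, the deviations from the group mean correlated between genes with a median r of 0.801 over 36 pairs, from -0.0151 (Cda4 with CG3713) to 0.966, and 35 of 36 were positive. Between the 9 genes and all other genes tested the median was -0.00744, with 46712 of 95031 values positive. The 9 genes were picked together, and no like set of other cuticle genes is compared here. These points share their library, their population and 3-library group means, so the values are a description. In the deviations by library, population 2 of the monogamous lines was low in both sexes, with 8 of 9 genes below the group mean in its male and in its female library, and polygamous population 1 was low in both, with 9 of 9 below in each. The female library of polygamous population 3 had 9 of 9 above. CG7214 varied most within groups, with an SD of 0.46 to 0.88 on the log2 scale, while the SD was 0.12 to 0.26 for Cda4, 0.11 to 0.32 for serp and 0.05 to 0.41 for CG3713.

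**Figure D4:**
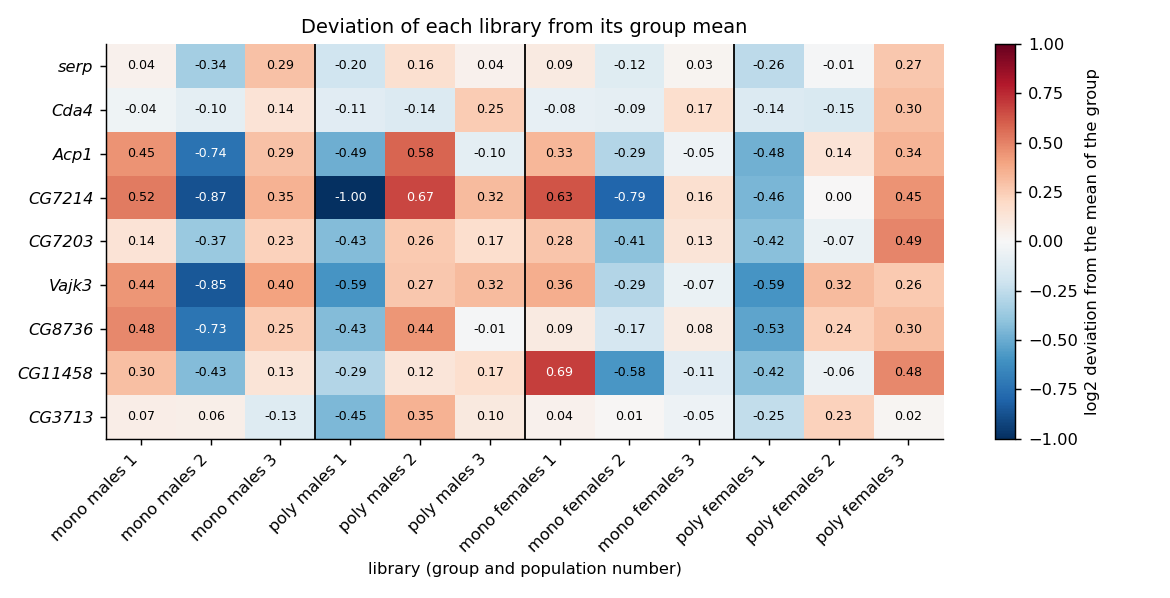
Deviation of log2(value + 1) from the group mean for each gene (rows) and library (columns, 4 groups of 3 divided by lines). The columns for polygamous population 1 are below the mean for all 9 genes in both sexes, with a median of -0.43 in males and -0.42 in females, and monogamous population 2 has medians of -0.43 in males and -0.29 in females.

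Genes outside the set were also ranked by how closely their values followed each of the 9 over the 12 libraries. Cpr97Eb, which encodes a structural cuticle protein with a chitin-binding domain, was among the 3 most similar genes for 7 of the 9, with Pearson r of 0.929 (CG3713) to 0.976 (CG7203); the exceptions were Cda4 and CG11458. It averaged 691 ± 88.2 normalised reads in monogamous males, 351 ± 77.2 in polygamous males, 560.5 ± 46.3 in monogamous females and 854 ± 187 in polygamous females (SD, n = 3). Its neighbour in name, Cpr97Ea, was the most similar gene to Acp1 (r = 0.967) and to CG8736 (r = 0.955) by Pearson correlation. kkv, the chitin synthase gene, followed serp (r = 0.934), Acp1 (0.939) and CG8736 (0.942), at 166 ± 35.4 in monogamous males, 96.0 ± 11.9 in polygamous males, 117 ± 19.2 in monogamous females and 239 ± 67.0 in polygamous females. By Spearman correlation Cpr97Eb was again among the 3 most similar for all 7 genes, while Cpr97Ea and kkv were not among them for any of the genes just named (rho 0.902 to 0.944).

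CG11458 resembled a Vajk gene, Vajk2 (r = 0.963), and Cda4 resembled wac (r = 0.894), CG13676 and CG17104, none of which remained among its 3 most similar genes by Spearman correlation or without the female library of monogamous population 1. CG3713 had y, whose product is needed for black cuticle pigment, in second place (r = 0.916, Spearman rho 0.469). These correlations run over 12 libraries that share 4 groups.

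Genes near the 9 in the genome were looked at for the same contrast. Of the 29 annotated genes that lie within 2 places of one of the 9 and are not among them, 12 were tested, 7 of these had a positive difference of the sex differences, and their median was 0.16. Only NimA, beside Vajk3, had 1 or more.

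Genes of the cuticle were taken as 8 lists with 138 tested genes, serp, Cda4 and Vajk3 among them. In these lists 20 genes were called higher and 17 lower in males over all populations (13 and 26 after TMM rescaling). The 17 include serp and Vajk3. Of all genes tested 20.2% were called higher and 9.27% lower, and 22.5% were called in either direction after TMM rescaling. The structural cuticle protein genes were the largest, with 52 tested of the 67 in the table; 11 were higher and 8 lower in males over all populations. Cpr76Ba (log2 difference 2.40, SE 0.17, limma adjusted p = 1.3e-05), Cpr76Bc (2.23, SE 0.11, adjusted p = 1.2e-06) and Cpr49Ae (0.73, SE 0.06, adjusted p = 3.8e-05) had the smallest p and were higher in males, opposite to the 6 calls among the 9 genes. The difference of the sex differences was 0.52 for Cpr76Ba, 0.35 for Cpr76Bc and 0.76 for Cpr49Ae. Over the whole list that measure was positive for 41 of 52 genes with a median of 0.36, against 51.8% positive and a median of 0.01 over all genes tested. Without the female library of monogamous population 1 it was positive for 39 with a median of 0.32.

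Of the 16 genes of the chitin breakdown list, 4 were lower in males, Cht2, Idgf1, Idgf5 and Idgf6, and 2 were higher, Cht10 and Cht11. Only Cht2 of these 4 is a chitinase gene, so the list count gives no common direction for chitinases. Under TMM and upper-quartile rescaling, in edgeR and in DESeq2, 6 were lower and 0 higher (17.0% to 25.9% of all genes called). Cht2, a chitinase gene, had -1.13 (SE 0.11, limma adjusted p = 8.3e-05), and the chitinase-like growth factor genes Idgf1 and Idgf6 had -0.83 (SE 0.09, adjusted p = 0.00017) and -0.66 (SE 0.13, adjusted p = 0.0044). The median of the difference of the sex differences in this list was -0.05. Of the 15 tanning genes 3 were higher and 2 lower in males. Without the library that stood apart these counts were 6 and 2, where 51.7% of all genes were called. The 3 with the smallest p were yellow-c (0.81, SE 0.06, limma adjusted p = 2.3e-05), yellow-e (1.34, SE 0.13, adjusted p = 8.9e-05) and yellow-h (0.53, SE 0.11, adjusted p = 0.0051), relatives of y.

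Chitin synthesis had 1 of 10 genes higher in males, the hexokinase gene Hex-A (0.20, SE 0.06, limma adjusted p = 0.031), and 0 lower. Without the library that stood apart 4 were higher and 0 lower, where 51.7% of all genes were called. With all 12 libraries kkv had a sex difference of -0.39 (SE 0.16, limma adjusted p = 0.093). It passed after TMM rescaling (-0.50, limma adjusted p = 0.049) and with the replicate block (limma adjusted p = 0.025). Its difference of the sex differences was 1.77 (SE 0.32), the highest of its list, whose median was 0.05. Of the 15 genes of chitin organisation and the apical matrix 1 was higher, pio (0.16, SE 0.05, limma adjusted p = 0.036), with zye at 0.61 (SE 0.21, adjusted p = 0.051) and obst-J at -0.65 (SE 0.24, adjusted p = 0.067). Of the 20 hormone and regulator genes 1 was higher, Eip78C (0.60, SE 0.20, limma adjusted p = 0.050), an ecdysone-induced nuclear receptor gene, and 0 were lower. Without the library that stood apart 10 were higher and 1 lower, where 51.7% of all genes were called. The calls of Hex-A, pio and Eip78C were lost under each rescaling of the libraries tried and under the replicate block. The hormone list had a median difference of the sex differences of 0.42, which was -0.01 without the female library of monogamous population 1.

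The deacetylase list had 1 of 6 higher in males, Cda9 (0.51, SE 0.13, limma adjusted p = 0.013), and 1 lower, serp; the Vajk list had 2 of 4 lower, Vajk3 and Vajk2 (-0.72, SE 0.11, limma adjusted p = 0.0011). The call of Cda9 was lost after upper-quartile rescaling (limma adjusted p = 0.071), in edgeR (0.060) and in DESeq2 (0.074). In the limma comparison of mating systems on population means 0 of the 138 tested genes of the 8 lists were called, with 28 at an unadjusted p under 0.05; edgeR called 0, and DESeq2 called 8 higher and 3 lower under monogamy.

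**Figure D5:**
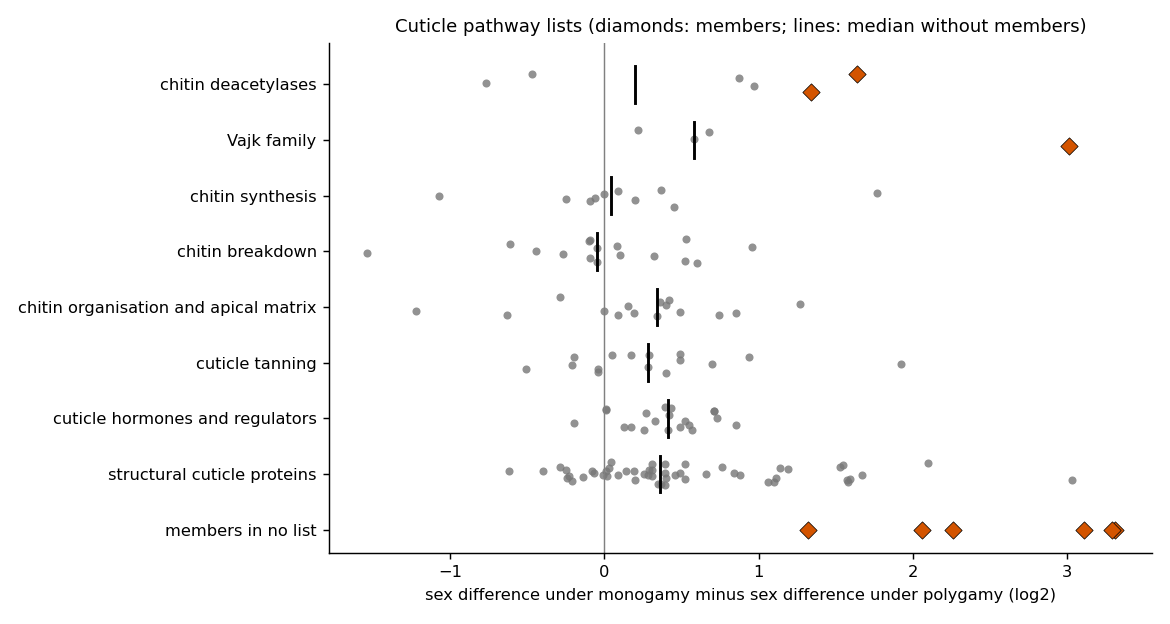
Sex difference under monogamy minus sex difference under polygamy (log2) for every tested gene of the 8 cuticle lists (grey points), with the 9 genes as diamonds and the median of the other genes of a list as a bar. The 9 genes run from 1.32 to 3.31, and the medians of the lists from -0.05 (chitin breakdown) to 0.58 (Vajk family). With the library that stood apart left out these 2 medians were 0.08 and 0.22, and that of the deacetylases was -0.18 in place of 0.20.

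Markers of several other head cell types also differed between groups, while those of muscle overlapped between mating systems in both sexes. The summed level of the 5 glial markers, all in the table, was 82882 to 92259 normalised reads in monogamous males, 62008 to 66954 in polygamous males, 54161 to 56109 in monogamous females and 55339 to 56575 in polygamous females. The 5 hemocyte markers summed to 10154 to 11665 in monogamous males, 8305 to 9589 in polygamous males, 7672 to 8619.7 in monogamous females and 7159 to 7909 in polygamous females. Both lists thus separated monogamous from polygamous males in the direction of the 9 genes, and in females both overlapped between mating systems. Of the 5 tracheal markers 4 were in the table, without btl. Their sum was 19900 to 20698 in monogamous males and 15731 to 17896 in polygamous males. In females it was 14694 to 17314 under monogamy and 16517 to 20462 under polygamy. Most of it came from Gasp and pio, which averaged 5694 and 11952 in monogamous males. Both are also in the list of chitin organisation and the apical matrix. The summed level of the 10 photoreceptor and neuron markers ran the other way in males, at 3518152 to 3803690 in monogamous and 4126683 to 4405651 in polygamous males. Such a sum follows its most abundant genes. Gene by gene, the difference of the sex differences was positive for 7 of these 10 markers, with a median of 0.47. This median and those of the marker lists below include the female library of monogamous population 1. Values without that library are not given here. The sum of the 7 fat body markers, which include the yolk protein genes Yp1, Yp2 and Yp3, ran the other way in females. It was 2018516 to 2812967 in monogamous and 1268022 to 1531642 in polygamous females. In males it was 167725 to 171263 under monogamy and 118001 to 162570 under polygamy. The difference of the sex differences was positive for 1 of these 7 markers, with a median of -0.97. Muscle markers summed to 231683 to 254986 in monogamous and 184687 to 246735 in polygamous males. In females their sum was 273324 to 303482 under monogamy and 272129 to 349312 under polygamy. The median difference of the sex differences was 0.34 for glial markers, 0.46 for hemocyte, 0.35 for tracheal and 0.26 for muscle markers. It was positive for 4 tested markers in each of these lists, out of 5, 5, 4 and 6. The part of these cell types in the values of the 9 genes was not tested.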

How the data were processed

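Head mRNA was measured in 12 libraries, 1 per population and sex, made with an Illumina mRNA-Seq kit from RNAzol extracts, per the labels' protocols. The submitters' processing notes name TopHat2, HTSeq, DESeq2 and genome build BDGP5, without versions or settings. Each deposited value is a normalised signal per gene: the numbers show that the authors multiplied read counts by a single factor for each library, which brings the column totals close together. Dividing by the value of 1 read gave whole reads for 100% of values at a tolerance of 0.1, and these recovered reads served the count tests used as alternatives. Unused columns numbered 0. Strand use in counting is not stated, so values of genes with overlapping exons are uncertain.

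FlyBase identifiers were matched to a reference gene table (10782 with a symbol, 454 without), which also gave neighbouring genes, chromosome arms and merged exon lengths. Its build is later than BDGP5, and coordinates are left out for that reason.

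As planned for normalised values, the test ran on log2(value + 1) for the 10568 of 11236 genes whose mean reached 10. In R 4.3.3, limma 3.58.1 with a mean-variance trend fitted a mean for each of the 4 groups to all 12 libraries (sex difference) or compared 6 population means (mating difference). Benjamini-Hochberg adjustment covered all genes, with calls under 0.05. The p-values of the sex difference measure the spread between the libraries of a group, with 1 library for each population and sex. That test takes the male and female library of a population as separate samples, and the replicate block pairs them. The p-values of the mating difference measure the spread between population means. Positive values mean higher in males or under monogamy. Fold changes on this scale understate those of genes with low values. Alternatives were pseudocounts of 0.5 and 5, no filter, TMM and upper-quartile rescaling, edgeR 4.0.16, DESeq2 1.42.0, leaving out 1 library or each population, and the population as a replicate block. Male and female libraries with the same number come from the same population, as the labels say, and correlated in their deviations from group means at 0.0908 to 0.474. The limma fit was tested on simulated data, and the outcome is not given here. Those data had a single dispersion for all genes, no effect shared within a population and no library that stood apart.

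The 9 genes, the gene lists and the rule for named genes were chosen with earlier results of these data known. The rule names the 9 genes, the other chitin deacetylase and Vajk genes, up to 3 genes with the smallest p in the sex difference in each other list, the 2 annotated genes on either side of each of the 9, and the 3 genes most correlated with each. Of the listed names, 2 could not be matched.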

Additional observations from a re-analysis of the deposited data

Results flagged for a closer look

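For 6 of the 9 genes, and for verm, every population of one mating system had a sex difference of one sign and every population of the other the opposite sign. Males were above females in 3 of 3 monogamous populations and below them in 3 of 3 polygamous populations. Some monogamous differences were small: CG3713 had 0.15, 0.18 and 0.04, and CG8736 had 0.07 in population 2. The median over all genes tested under monogamy was 0.13. TMM rescaling moved the median sex difference of all genes by -0.11 and upper-quartile rescaling by -0.15. Signs of such small values can therefore depend on scaling, and the split is given for the deposited scaling only. The share of all genes tested with such a split of signs is not given here, so how rare it is cannot be said. The sex difference under monogamy minus that under polygamy was 1.34 for Cda4, 3.11 for Acp1, 3.31 for CG7214, 2.06 for CG7203, 3.29 for CG8736, 1.32 for CG3713 and 0.87 for verm, on the log2 scale. These values are given as a description with no p, since the 6 genes were chosen for this contrast and verm was singled out beside them. Over all genes, limma with 1 mean per group and edgeR called 0 genes on this contrast, while DESeq2 called 63, with the 6 genes and verm among them.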

How the results depend on the processing

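Of the 9 genes, 6 were called lower and 0 higher in males; with the replicate block, a paired analysis in which the population is the block, 1 (Cda4) was higher and 8 were lower. Leaving out 1 population at a time, 3 to 6 were lower. In the 8 lists, 20 genes were higher and 17 lower in males, with 29.5% of all genes called. Higher were 13 after TMM and 12 after upper-quartile rescaling, 12 in edgeR and 13 in DESeq2. If the first monogamous female library was left out 36 were higher, with 51.7% of all genes called, and 11 to 37 on leaving out 1 population. Lower were 26 after TMM rescaling, 26 in edgeR, 27 in DESeq2 and 11 to 21 on leaving out 1 population. Under monogamy 0 list genes were called higher or lower, against 8 higher and 3 lower in DESeq2. For the sex difference 3119 genes of all were called, 1709 without polygamous population 2 and 5460 without that female library. The difference of the sex differences had 0 calls, 9 under the replicate block, 63 in DESeq2, 9 without that female library and 1 without monogamous population 1 (0 of the 9 genes in both of these), and the mating difference had 0 calls, 386 in DESeq2 and 1477 with 1 mean per group and without that female library.

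None of the signs that turned belonged to a call. On leaving out 1 population at a time, the mating difference ran from -0.17 to 0.06 for serp, -0.38 to 0.12 for Acp1, -0.36 to 0.10 for CG8736, -0.09 to 0.32 for CG7203, -0.19 to 0.39 for Vajk3, -0.05 to 0.11 for verm and -0.04 to 0.23 for Vajk4, and the sex difference ran from -0.16 to 0.09 for Vajk1. The mating difference also turned for CG7203 in edgeR (-0.06) and DESeq2 (-0.07), for Vajk3 in edgeR (-0.31) and DESeq2 (-0.32), and for CG11458 in edgeR (-0.04) and DESeq2 (-0.05). Without the female library of monogamous population 1 it turned for Acp1 (0.02), CG8736 (0.04), Cda5 (0.01) and Cda9 (0.03). The sex difference of rk turned after upper-quartile rescaling (-0.01). The cause was not tested. Without that female library, population 1 stands as its male library alone in the mating difference, which then also holds the sex difference; with group means in its place the signs of Acp1 (-0.22) and CG8736 (-0.15) were as reported. With 3 libraries per group, this number limits the precision of every value.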
